A study of Canis lupus familiaris with 22 samples.

Results

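Matrix metalloproteinases and their tissue inhibitors were followed in the blood of dogs with canine atopic dermatitis (cAD), before and after 6 months of allergen-specific immunotherapy (ASIT), and in healthy dogs. The genes were *MMP9*, *MMP8*, *MMP25*, *MMP2*, *MMP14*, *TIMP1*, *TIMP2*, *TIMP3*, *ADAM8* and *ADAM10*, and a probe belonged to a gene when the scanner files gave it that gene name. Of these 10 genes, 8 had a probe, out of 34382 gene names and accessions on the array, with 20 probes in all. *MMP25* and *ADAM8* were not analysed here, since no probe of the files carried their name.

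Of the 22 arrays, 8 were hybridized with RNA of healthy control dogs (ctrl), 7 with RNA of cAD patients before ASIT (0) and 7 with RNA of the same patients at 6 months of treatment (6 months). The patients were client-owned adult dogs of both sexes and several breeds, which then received subcutaneous allergen extracts in rising doses, and the control dogs were blood donors of several breeds. Neither an untreated patient group nor a second sampling of the control dogs was part of the design. Cy5 marked the RNA of the dog under study and Cy3 a common reference pooled from 13 other healthy dogs, so every value here is a log2 ratio of a dog to that pool, and 0 means an equal signal.

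Matrix metalloproteinases are zinc-dependent enzymes that are made as inactive precursors and that cut collagens, gelatin, cytokines and other proteins outside the cell. Those known from blood are stored in the granules of neutrophils, as MMP9 and MMP8 are, or sit on the cell surface, as MMP14 does. TIMPs bind the active site of these enzymes and block them, and ADAM10 is a membrane-bound relative that releases the outer parts of surface proteins. In skin, MMP9 cuts collagen of the basement membrane, which leukocytes cross on their way into the tissue.

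*MMP9* was read by 5 probes of 60 letters each, numbered from the brightest to the dimmest by mean Cy5 signal over the 22 arrays. They are shown because they disagreed with each other. The capitals mark the 49 letters over which probes 1 and 2 overlap, with probe 2 starting 11 letters before probe 1.
MMP9 probe 1, chr24:33281039-33281098: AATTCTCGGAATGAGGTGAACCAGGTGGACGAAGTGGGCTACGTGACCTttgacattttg
MMP9 probe 2, chr24:33281028-33281087: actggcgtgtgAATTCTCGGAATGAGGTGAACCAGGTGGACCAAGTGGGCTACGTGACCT
MMP9 probe 3, chr24:33275640-33275989: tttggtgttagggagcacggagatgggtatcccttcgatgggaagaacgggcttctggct
MMP9 probe 4, chr24:33274391-33274936: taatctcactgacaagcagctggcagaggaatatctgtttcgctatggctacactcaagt
MMP9 probe 5, not mapped in the files: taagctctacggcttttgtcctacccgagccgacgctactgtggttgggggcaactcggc

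The files give these positions on canFam3.1, with coordinates rising along each mapped probe. Whether a probe lies in an exon was not analysed here, since no annotation of this build was at hand. Probes 1 and 2 differed within their overlap by 1 substitution, G31C, with probe 1 as the reference and positions counted from its first letter. Both read almost the same stretch and are not independent measurements. Probes 3 and 4 cover 350 and 546 bases of the genome with 60 letters, so their letters are split over blocks with a gap between them. Probe 5 came from another accession than the other 4.

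The pair of *TIMP2* probes is shown because the files place them side by side in opposite directions.
TIMP2 probe 1, chr9:2524028-2532168, coordinates rising: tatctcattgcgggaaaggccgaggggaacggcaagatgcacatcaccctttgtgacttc
TIMP2 probe 2, chr9:2523951-2524011, coordinates falling: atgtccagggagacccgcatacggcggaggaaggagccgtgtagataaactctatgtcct

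In the 5 other genes with more than 1 probe, all mapped probes of a gene ran in the same direction. The strand of the RNA behind *TIMP2* probe 2 was not tested.

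Fewer probes stood above background on most patient arrays than on those of ctrl, which bears on the dim probes below. In the median array of ctrl, 87.8% of probes had Cy5 well above background, against 62.5% at 0 and 61.6% at 6 months. For Cy3, which carried the same reference everywhere, the medians were 81.6%, 58% and 56.8%. On slide 3, which held dogs 1 and 2 at both times, Cy5 was at 87.5% and 61.2% at 0 and at 81.6% and 80.8% at 6 months. The control arrays filled 2 slides of their own that were scanned on a day of their own, so slide and group cannot be told apart in either comparison with ctrl. In 0 vs. 6 months the overlap was partial. Slide 5 held only arrays at 0, and slide 6 only the later arrays of dogs 4 to 7, scanned on another day. Within dogs 4 to 7, time therefore cannot be told apart from slide and scan day. Tests were run on probes whose Cy5 signal passed the software's well-above-background flag in 7 or more arrays, as 19 of the 20 member probes and 38286 probes in all did. The exception was *MMP2* probe 3, which was well above background on 2, 1 and 0 arrays of ctrl, 0 and 6 months, and for which no fold is given. Blood cells were represented as the labels say, with 12 of 12 neutrophil and 9 of 9 T cell marker probes well above background on every array.

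None of the 19 tested member probes was called in any of the 3 comparisons at an adjusted p under 0.05 (limma). In 0 vs. ctrl, 0.0418% of all tested probes were called, and 0 of the 19 members. At an unadjusted p under 0.05 there were 4 of 19 members (2 higher and 2 lower in the patients) against 11.7% of all probes. In 6 months vs. ctrl, 0% of all probes were called, and at an unadjusted p under 0.05 there were 3 of 19 members, all of them *MMP9* probes with higher ratios in the patients, against 7.2% of all probes. In 0 vs. 6 months, 0% were called, and 2 of 19 members, *MMP9* probe 5 and *TIMP3* probe 4, stood under an unadjusted p of 0.05, against 5.96% of all probes. The median difference of the member probes was -0.08, 0.03 and -0.13 on the log2 scale in these comparisons, and that of all probes -0.017, -0.04 and -0.009. The 3 comparisons share their arrays in pairs, and the values below are therefore not independent of each other.

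**Figure D1:**
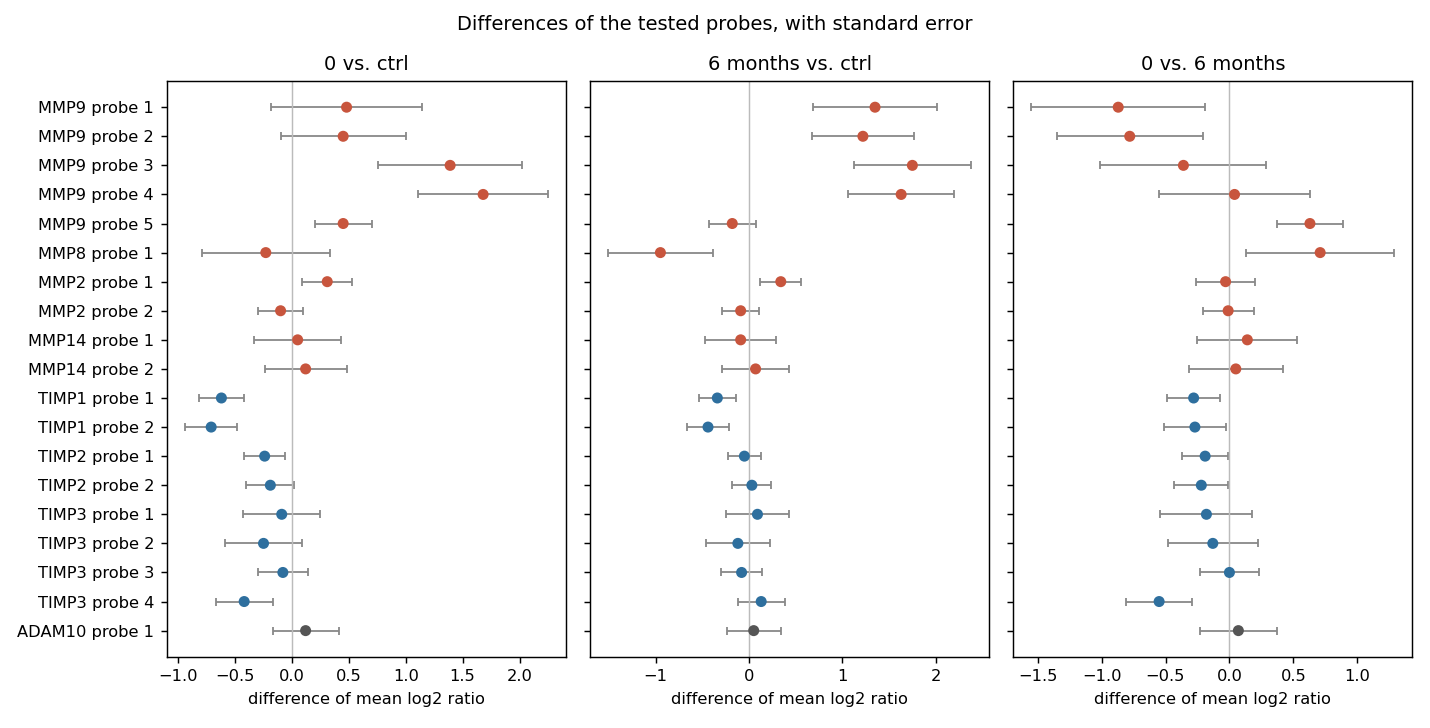
Difference of mean log2 ratio (horizontal axis) with its standard error for the 19 tested probes, in 0 vs. ctrl, 6 months vs. ctrl and 0 vs. 6 months. The axes of the 3 panels differ in range. *MMP9* probes 1 to 4 lie to the right of 0 in both comparisons with ctrl, up to 1.75, and both *TIMP1* probes lie to the left. *MMP9* probe 5 lies at 0.45, beside probes 1 and 2, in 0 vs. ctrl and at -0.18 in 6 months vs. ctrl.

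The gelatinase *MMP9* had the largest SD of the 8 reference probes in the cAD patients. With probe 1, ctrl arrays ran from -0.27 to 1.4 with a median of 0.57. The arrays at 0 ran from -0.9 in dog 7 to 4.2 in dog 6 with a median of 0.6, and those at 6 months from 0.06 in dog 1 to 4.62 in dog 3 with a median of 1.9. The groups overlapped, and 2 of 7 arrays at 0 and 4 of 7 at 6 months lay above the highest control. The SD was 0.6 in ctrl (n = 8), 1.63 at 0 (n = 7) and 1.78 at 6 months (n = 7).

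The mean of *MMP9* probe 1 was higher by 0.48 ± 0.66 (SE) in 0 vs. ctrl (adjusted p = 0.831, limma) and by 1.35 ± 0.66 in 6 months vs. ctrl (adjusted p = 0.681), a fold of 1.39 and 2.55. Exact 2-sided permutation tests of the same differences gave p = 0.508 and p = 0.0651. Dog 6 decided the first of these, which was -0.04 without its array at 0. Without dog 3 after ASIT the second was 0.9, and with normexp background correction 0.86. Probe 2, which shares most of its letters with probe 1, gave 0.45 ± 0.55 and 1.22 ± 0.55, with exact permutation p = 0.427 and p = 0.0539, and 0.04 in 0 vs. ctrl without dog 6.

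Probes 3 and 4 gave larger differences in 0 vs. ctrl than probes 1 and 2 did, an order that turned with normexp. On probe 3, ctrl ran from -0.01 to 0.97 (median 0.32), 0 from 0.04 to 5.83 (median 1.3) and 6 months from 0.78 to 4.52 (median 1.81). On probe 4, ctrl ran from -0.33 to 0.65 (median 0.15), 0 from 0 to 4.58 (median 1.89) and 6 months from 0.08 to 4.63 (median 1.64). The lowest value at 0 on probe 4, in dog 7, is a ratio that the software had set to 0. On this probe 6 of 7 arrays at 0 and 5 of 7 at 6 months lay above the highest control.

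In 0 vs. ctrl the difference was 1.39 ± 0.63 with probe 3 (adjusted p = 0.376, exact permutation p = 0.00637) and 1.68 ± 0.57 with probe 4 (adjusted p = 0.219, exact permutation p = 0.00186). In 6 months vs. ctrl it was 1.75 ± 0.63 (adjusted p = 0.669, exact permutation p = 0.000466) and 1.63 ± 0.57 (adjusted p = 0.658, exact permutation p = 0.00249). The exact p-values are unadjusted, from 57 such tests, and the smallest that 8 against 7 arrays allow is 0.000155. Without dog 6 at 0, the difference in 0 vs. ctrl was 0.71 with probe 3 and 1.22 with probe 4. Both probes were dim in the patients. Cy5 was well above background on 3 of 7 arrays at 0 with either probe, on 7 and 5 of 7 at 6 months, and on 8 of 8 in ctrl, while Cy3 was so on 1 and 0 of 7 arrays at 0 and 2 and 1 of 7 at 6 months. With normexp background correction and an offset of 50, which pulls ratios of dim spots towards 0, the differences in 0 vs. ctrl were 0.14 and 0.25, against 0.47 and 0.39 for probes 1 and 2, and those in 6 months vs. ctrl 0.11 and 0.17. With the Cy5 channel alone, probe 3 gave -0.21 in 0 vs. ctrl and 0.33 in 6 months vs. ctrl, and probe 4 gave 1.2 and 1.59. That reading called 8093 and 5947 probes across the array in these comparisons.

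Across the arrays of ctrl and of 0, probe 5 did not follow probe 1, although its mean difference in 0 vs. ctrl was close to that of probes 1 and 2. It ran from -0.31 to 0.46 in ctrl, from -0.42 to 1.04 at 0 and from -1.33 to 0.75 at 6 months, and the array with the highest ratio at 0 on probes 1 to 4, that of dog 6, gave 0.13. Its difference was 0.45 ± 0.25 in 0 vs. ctrl and -0.18 ± 0.25 in 6 months vs. ctrl, and 0.63 ± 0.26 between 0 and 6 months (adjusted p = 0.514, 0.883 and 0.698). With normexp these were 0.03, -0.02 and 0.05. Without dog 4 at 6 months the second was 0.02, and the third was 0.07 with slide as a fixed block and 0.08 in dogs 1 to 3 alone. Cy5 was well above background on 8, 5 and 5 arrays of ctrl, 0 and 6 months.

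**Figure D2:**
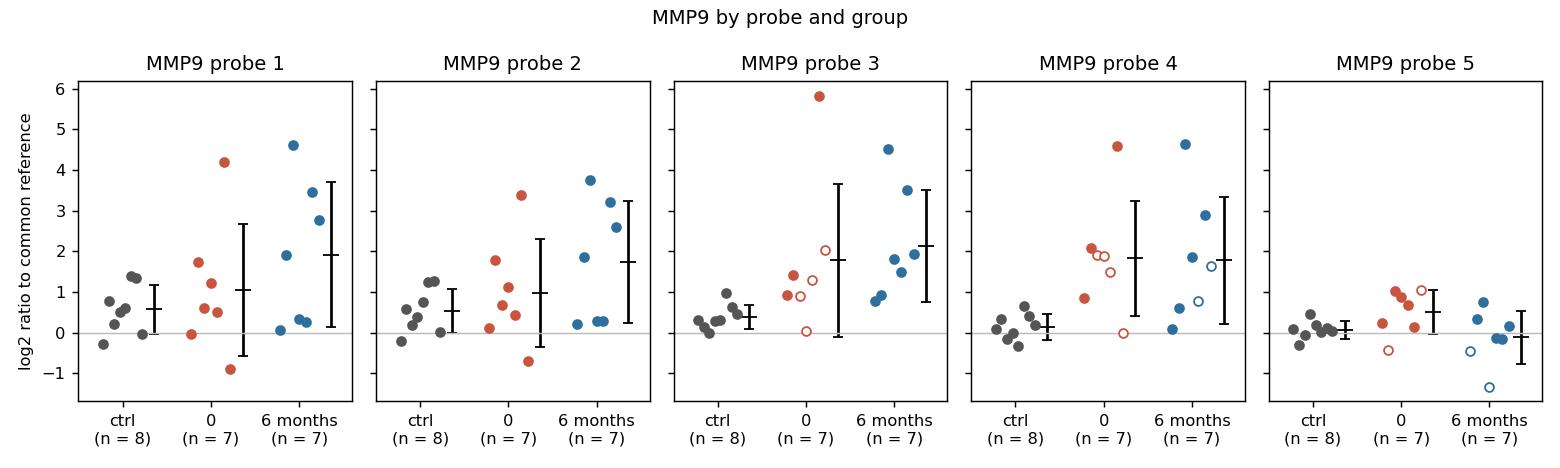
Log2 ratio to the common reference (vertical axis) of the 5 *MMP9* probes on the arrays of ctrl (n = 8), 0 (n = 7) and 6 months (n = 7). Points are arrays, open where Cy5 was not well above background, and bars give the mean and SD. On probes 1 to 4 single patient arrays reach 3.39 to 5.83, whereas probe 5 reaches 1.04 at most.

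Agreement with probe 1 was measured within each group. Probe 2 tracked it with Pearson's r = 0.99 in ctrl, 1 at 0 and 0.99 at 6 months (exact permutation p = 0.000149, 0.000198 and 0.000198), with Spearman's rho = 0.95, 1 and 1 (exact permutation p = 0.00114, 0.000397 and 0.000397). Without the 2 arrays farthest from the median r was 0.97, 0.99 and 1, and p adjusted over all 42 relations computed between member probes was 0.00277 in each group.

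The dimmer probes followed less closely. Probe 4 gave r = 0.57, 0.98 and 0.84 in ctrl, 0 and 6 months (exact permutation p = 0.142, 0.000397 and 0.0127, adjusted 0.229, 0.00417 and 0.041), rho = 0.57, 0.96 and 0.82 (exact permutation p = 0.151, 0.00278 and 0.0341), and r = 0.44, 0.86 and 0.56 without the 2 farthest arrays. Probe 3 gave r = 0.62, 0.72 and 0.85 (exact permutation p = 0.0994, 0.131 and 0.0113, adjusted 0.18, 0.22 and 0.0395) and rho = 0.45, 0.14 and 0.89 (exact permutation p = 0.267, 0.783 and 0.0123). Without the 2 farthest arrays r of probe 3 was 0.45, 0 and 0.61, so the value at 0 rests on those arrays. Probe 5 gave r = -0.06, -0.54 and 0.72 (exact permutation p = 0.907, 0.224 and 0.0583, adjusted 0.907, 0.314 and 0.128), rho = -0.1, -0.64 and 0.61 (exact permutation p = 0.84, 0.139 and 0.167), and r = 0.02, -0.41 and 0.54 without the 2 farthest arrays.

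Within the dogs, *MMP9* differed in both directions. On probe 1 the ratio of dog 3 went from 0.6 at 0 to 4.62 at 6 months and that of dog 7 from -0.9 to 2.78. Dog 6 was high on both arrays, at 4.2 and 3.47, and dog 2 had 1.75 and 1.9. In dogs 1, 4 and 5 both values lay between -0.03 and 1.22. The mean difference in 0 vs. 6 months was -0.87 ± 2.07 (SD over 7 dogs), with 4 dogs lower and 3 higher at 0 (exact sign-flip permutation p = 0.453, where 7 dogs allow no p below 0.0156). On slide 3, which held both arrays of dogs 1 and 2, the difference was -0.12, and on slide 4, with dogs 3 and 4 at 0 and dog 3 at 6 months, it was -3.7. With slide as a fixed block it was -1.55 and with normexp -0.39. The changes within dogs 4 to 7, that of dog 7 included, also span different slides and scan days.

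For dog 3 the change from 0 to 6 months was 3.06 on probe 2, 3.61 on probe 3 and 2.73 on probe 4. For dog 7 the change from 0 to 6 months was 3.67 and 3.31 on probes 1 and 2, -0.1 on probe 3 and 1.64 on probe 4. Probe 5 changed by -0.27 in dog 3 and by -0.86 in dog 7, where its Cy5 was not well above background at 0. Cy5 of probes 3 and 4 was not well above background at 0 in either dog, nor that of probe 4 in dog 7 at 6 months, so the changes on these probes start from a signal at background.

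*MMP2*, the other gelatinase, has little known expression in blood leukocytes. Its reference probe, the brightest, ran from -0.4 to 1.09 in ctrl (median -0.02), from -0.04 to 1.05 at 0 (median 0.32) and from -0.29 to 0.96 at 6 months (median 0.34). The upper end of ctrl was a single array, that of control dog 5, with the next at 0.14, and without it the difference was 0.46 in 0 vs. ctrl and 0.48 in 6 months vs. ctrl. With all arrays the difference was 0.31 ± 0.22 in 0 vs. ctrl and 0.34 ± 0.22 in 6 months vs. ctrl (adjusted p = 0.641 and 0.709). With the Cy5 channel alone the latter was 0.99 (adjusted p = 0.0325, limma), in a reading that called 5947 of 38286 probes across the array. With normexp the differences were 0.03 and -0.03, and in the series matrix 0.15 and 0.18. *MMP2* probe 2 gave -0.1 ± 0.2 and -0.09 ± 0.2.

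*MMP8*, a collagenase kept in the granules of neutrophils like *MMP9*, had 1 probe, well above background on all arrays. It ran from -0.44 to 1.52 in ctrl (median 0.31), from -1.8 to 2.58 at 0 (median 0.15) and from -2.43 to 2.05 at 6 months (median -0.69). Dog 2 was the highest at both times and stood above every control, while 4 of 7 arrays at 6 months lay below the lowest control. The difference was -0.23 ± 0.56 in 0 vs. ctrl and -0.95 ± 0.56 in 6 months vs. ctrl, and 0.71 ± 0.58 between 0 and 6 months (adjusted p = 0.909, 0.69 and 0.934). With normexp these were -0.19, -0.24 and 0.06. Without dog 2 at 0 the difference in 0 vs. ctrl was -0.62, and without dog 7 at 0 it was 0.11. The difference in 6 months vs. ctrl lay between -1.37 and -0.62 without single arrays, and that between 0 and 6 months between 0.32 and 1.13. Within dogs the ratio was higher at 0 than at 6 months in 6 of 7 (exact sign-flip permutation p = 0.203).

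The array of dog 3 at 6 months, highest for *MMP9* probe 1 at 4.62, was the lowest of all for *MMP8* at -2.43. Between *MMP9* and *MMP8* r was 0.7 in ctrl, 0.68 at 0 and -0.44 at 6 months (exact permutation p = 0.061, 0.103 and 0.332). Spearman's rho was 0.62, 0.89 and -0.39 (exact permutation p = 0.115, 0.0123 and 0.396). Without the 2 farthest arrays r was 0.86, 0.77 and -0.05. Adjusted over the 42 relations, p for r was 0.128, 0.18 and 0.41, and p for rho 0.254, 0.0431 and 0.52. Whether the relations differed between the groups was not tested.

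**Figure D3:**
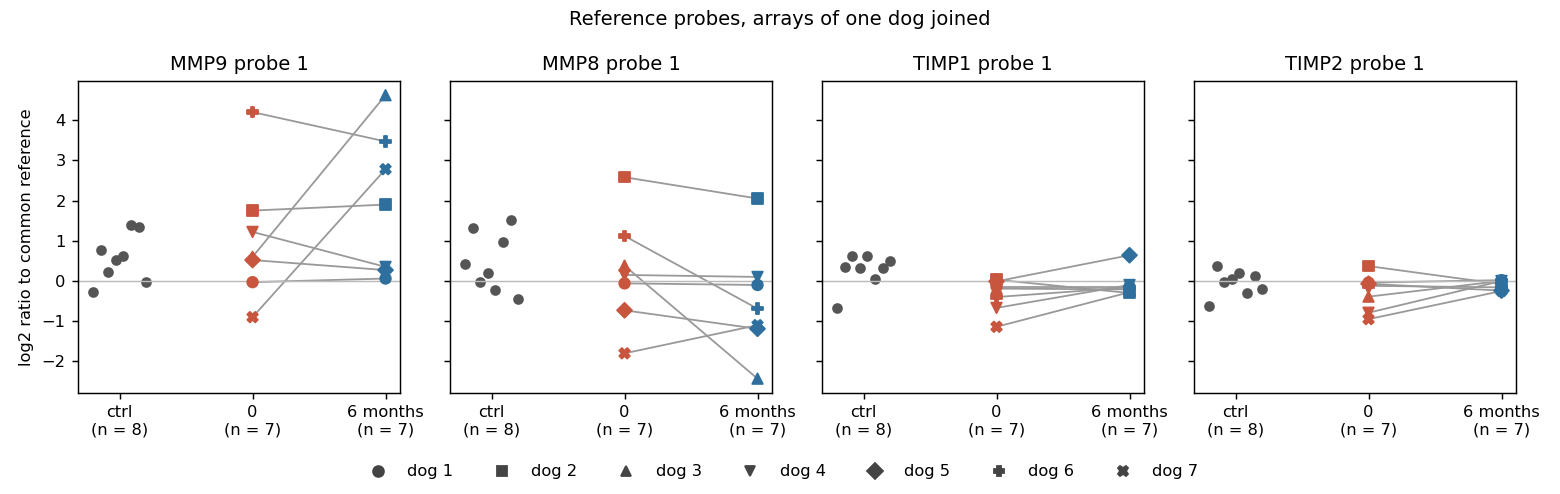
Log2 ratio to the common reference (vertical axis) of the reference probes of *MMP9*, *MMP8*, *TIMP1* and *TIMP2* in ctrl, at 0 and at 6 months, with the pair of arrays of each cAD patient joined by a line. *MMP9* of dogs 3 and 7 ends at 4.62 and 2.78 from starts of 0.6 and -0.9, and *MMP8* of dog 3 goes from 0.38 to -2.43.

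*MMP14*, a membrane-anchored collagenase that activates the MMP2 precursor, and the sheddase *ADAM10* did not differ beyond the spread between dogs. *MMP14* probes 1 and 2 had means between -0.06 and 0.16 in the 3 groups, with SDs of 0.25 and 0.34 in ctrl and 0.84 to 1.02 in the patients. Their Cy5 was well above background on 3 and 4 of 7 arrays at 0, and on 4 and 5 of 7 at 6 months. The differences lay between -0.09 and 0.14 (smallest adjusted p = 0.928). *MMP14* probe 2 followed probe 1 with r = -0.35 in ctrl, 0.9 at 0 and 0.82 at 6 months, or -0.13, 0.91 and 0.43 without the 2 farthest arrays. With the Cy5 channel alone the *MMP14* probes went opposite ways in 0 vs. ctrl, at -0.72 and 0.74. *ADAM10* ran from -0.82 to 0.79 in ctrl, -0.02 to 0.43 at 0 and -1.26 to 1.12 at 6 months, and differed by 0.12 ± 0.29 in 0 vs. ctrl and by 0.05 ± 0.29 in 6 months vs. ctrl. With the Cy5 channel alone, *ADAM10* was higher by 1.52 in 0 vs. ctrl (adjusted p = 0.03). In that reading 8093 probes across the array were called.

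Among the inhibitors, *TIMP1*, which blocks MMP9 and also binds its precursor, had lower mean ratios in the patients with both probes. Both were well above background on all arrays. On probe 1, ctrl ran from -0.68 to 0.61 (median 0.33), 0 from -1.14 to 0.03 (median -0.19) and 6 months from -0.3 to 0.64 (median -0.16). Each of the 7 arrays at 0 lay below the median of ctrl, but control dog 1, at -0.68, was lower than 6 of them, and the groups overlapped.

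The difference in 0 vs. ctrl was -0.62 ± 0.2 with probe 1 (adjusted p = 0.214, exact permutation p = 0.0146) and -0.71 ± 0.23 with probe 2 (adjusted p = 0.202, exact permutation p = 0.0165), a fold of 1.53 and 1.63. Their unadjusted p-values in limma, 0.00615 and 0.00523, were the lowest of any member in this comparison. By the exact permutation test *MMP9* probes 3 and 4 had lower ones, p = 0.00637 and p = 0.00186. Leaving out single arrays moved the difference of probe 1 between -0.75 and -0.49. Over 9 alternatives it lay between -0.62 and -0.44, at an unadjusted p under 0.05 in 7 of them. In 6 months vs. ctrl the probes gave -0.34 ± 0.2 and -0.44 ± 0.23 (adjusted p = 0.698 and 0.681), and in 0 vs. 6 months -0.28 ± 0.21 and -0.27 ± 0.24 (adjusted p = 0.934 for both). In 0 vs. 6 months probe 1 gave -0.15 without dog 7 at 0 and -0.16 without dog 5 at 6 months, and in dogs 1 to 3 alone the direction was the opposite, at 0.12.

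Both *TIMP1* probes varied together, with r = 0.94 in ctrl, 0.92 at 0 and 0.87 at 6 months (exact permutation p = 0.000918, 0.00298 and 0.0351, or 0.00643, 0.0148 and 0.0842 adjusted over the 42 relations). Spearman's rho was 0.86, 0.89 and 0.57 (exact permutation p = 0.0107, 0.0123 and 0.2), and r without the 2 farthest arrays was 0.79, 0.6 and 0.49.

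Cell type markers were set beside these values. The platelet list, of which 5 genes were tested with 6 probes, had a mean log2 ratio with a median over dogs of 0.21 in ctrl (-0.85 to 0.74), -0.44 at 0 (-1.05 to 0.3) and -0.11 at 6 months (-0.81 to 0.63), the same order as *TIMP1*, and 2 of its 6 probes stood lower in 0 vs. ctrl at an unadjusted p under 0.05, against 7.93% of all probes. Medians of the neutrophil list, given below, ran in this order too. The part of either list in the *TIMP1* values was not tested. In bulk blood, fewer cells of a type and less RNA per cell cannot be told apart. The neutrophil list (7 genes, 12 probes) had medians of 0.22, 0.05 and 0.11 and the neutrophil granule list (10 genes, 15 probes) of -0.17, 0.01 and 0.12, with 0 of 12 and 0 of 15 probes under an unadjusted p of 0.05 in 0 vs. ctrl and 0 and 1 in 6 months vs. ctrl, against 11.7% and 7.2% of all probes. The erythroid list (5 genes, 6 probes) had medians of -0.28 in ctrl, 0.52 at 0 and 0.7 at 6 months. At an unadjusted p under 0.05, 0 of its 6 probes stood higher in 0 vs. ctrl and 1 of 6 in 6 months vs. ctrl, against 3.81% and 4.09% of all probes. The T cell list (6 genes, 9 probes) had medians of -0.03, 0.15 and -0.28, with 0 and 2 of 9 probes lower in the same comparisons, against 7.93% and 3.11%. Medians of the monocyte list were -0.12, -0.27 and -0.06, those of the B cell list -0.16, -0.04 and -0.32, and those of the eosinophil list -0.1, 0.04 and 0.15. Medians over dogs of the neutrophil granule, erythroid and eosinophil lists ran in the same order over the groups as that of *MMP9* probe 1. The eosinophil list rested on 2 probes of 2 genes. By the median difference over probes, the erythroid list kept this order, at 0.38 in 0 vs. ctrl and 0.92 in 6 months vs. ctrl. The order of 0 and 6 months turned for the granule list, at 0.09 and 0.05, and for the eosinophil list, at 0.23 and 0.04. The part of these lists in the *MMP9* and *MMP8* values was not tested.

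*TIMP2* inhibits MMPs and takes part in the activation of MMP2 on the cell surface. On probe 1 of each gene, its range was narrower than that of *TIMP1* in ctrl and at 6 months, but not at 0. On probe 1, ctrl ran from -0.62 to 0.38, 0 from -0.95 to 0.37 and 6 months from -0.25 to 0.02. The SD was 0.32, 0.46 and 0.12. The difference was -0.24 ± 0.18 in 0 vs. ctrl and -0.05 ± 0.18 in 6 months vs. ctrl, and -0.19 ± 0.18 between 0 and 6 months (adjusted p = 0.658, 0.96 and 0.934). Probe 2, which lies in the opposite direction, gave -0.19 ± 0.21, 0.03 ± 0.21 and -0.22 ± 0.21. It followed probe 1 with r = 0.09 in ctrl, 0.91 at 0 and 0.52 at 6 months (exact permutation p = 0.839, 0.00317 and 0.22, or 0.859, 0.0148 and 0.314 adjusted over the 42 relations). Spearman's rho was 0.1, 0.93 and 0.75 (exact permutation p = 0.84, 0.00675 and 0.0663), and r without the 2 farthest arrays was 0.9, 0.9 and 0.04. On probe 1 of *TIMP1* and of *TIMP2*, the lowest arrays at 0 were those of dogs 4 and 7, at -0.67 and -1.14 for *TIMP1* and -0.79 and -0.95 for *TIMP2*. On *TIMP2* probe 2 they were those of dogs 3 and 7, at -0.72 and -0.77. Over all arrays of a group, r between *TIMP1* and *TIMP2* was 0.75 in ctrl, 0.89 at 0 and -0.41 at 6 months (exact permutation p = 0.0361, 0.00278 and 0.47, or 0.0842, 0.0148 and 0.534 adjusted over the 42 relations). Spearman's rho was 0.55, 0.93 and 0.21 (exact permutation p = 0.171, 0.00675 and 0.662). Without the 2 farthest arrays r was 0.18, 0.56 and 0.71. The values in ctrl and at 6 months rest on those arrays, and the value at 0 fell as well, without dogs 4 and 7.

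*TIMP3*, the inhibitor that is held in the extracellular matrix and also blocks ADAM proteinases, was read by 4 probes. Probes 1 and 2, well above background on all arrays, had means between -0.25 and 0.01 and differences between -0.25 and 0.09 (smallest adjusted p = 0.825). Probe 3 was above background on 1 and 2 of 7 arrays at 0 and 6 months. Probe 4, above background on 4, 2 and 1 arrays, gave -0.55 ± 0.26 in 0 vs. 6 months (unadjusted p = 0.0463, adjusted p = 0.817). That value rests on signals mostly at background, and in 0 vs. 6 months probes 1 to 3 gave -0.18, -0.13 and 0.

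The balance of proteinase and inhibitor was taken on each array as the difference of the log2 ratios of the reference probes, which is the ratio of the pair relative to the same pair in the pooled reference. It is given without a test. *MMP9* minus *TIMP1* ran from -0.51 to 1.34 in ctrl (median 0.3), from 0.1 to 4.6 at 0 (median 0.79) and from -0.36 to 4.82 at 6 months (median 2.2). It was above 0 on 6 of 8, 7 of 7 and 6 of 7 arrays. The 4 highest values were those of dog 6 at 0, at 4.6, and of dogs 3, 6 and 7 at 6 months, at 4.82, 3.63 and 3.06. *MMP9* minus *TIMP2* had the same 4 arrays at 4.32, 4.61, 3.63 and 3.03, with medians of 0.41, 1 and 1.98 in ctrl, 0 and 6 months.

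For *MMP8* the balance took another course. *MMP8* minus *TIMP1* had medians of 0.39 in ctrl, 0.57 at 0 and -0.53 at 6 months, and was above 0 on 4 of 8, 5 of 7 and 3 of 7 arrays. *MMP8* minus *TIMP2* had medians of 0.53, 0.77 and -0.53. Dog 3 at 6 months had the lowest of both at -2.22 and -2.43 and the highest balance of *MMP9*. A balance with *MMP25* was not analysed here.

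**Figure D4:**
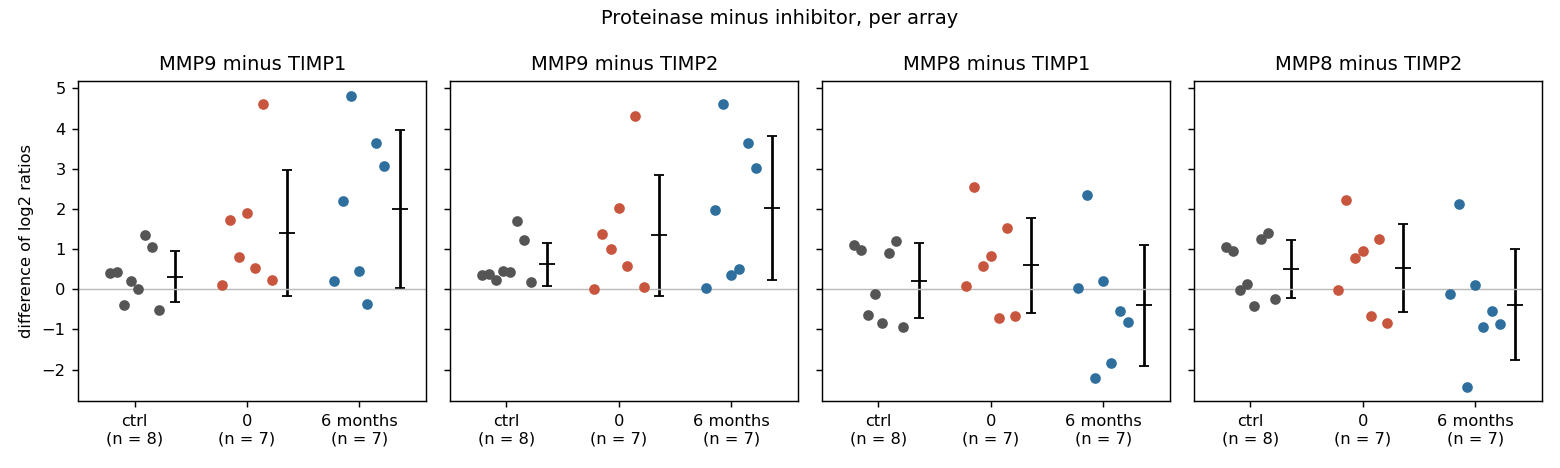
Difference of the log2 ratios of a proteinase and an inhibitor on each array (vertical axis), in ctrl (n = 8), at 0 (n = 7) and at 6 months (n = 7), with mean and SD as bars. For *MMP9* 4 patient arrays lie between 3.03 and 4.82, and for *MMP8* the medians at 6 months lie at -0.53.

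The transcripts whose ratios ran most like those of *MMP9* probe 1 over the 22 arrays were ranked by Pearson's r among 20251 tested probes of 12728 named genes. Of the first 8 genes, 7 are given here, namely *HPGD* (r = 0.86), *PGB* (0.86), *RRAD* (0.83), *CPA3* (0.82), *SLC18A2* (0.82), *STRC* (0.79) and *ZNF324* (0.79). Each cAD patient entered with both its arrays, and no test belongs to this ranking. *HPGD* encodes an enzyme that inactivates prostaglandins, *CPA3* a carboxypeptidase of mast cell granules, and *SLC18A2* a transporter that loads monoamines into vesicles. Within ctrl r lay between -0.26 and 0.37 for these 7 genes, within 0 between 0.82 and 0.96, and within 6 months between 0.74 and 0.97. The genes were chosen by r over these same arrays. Without dog 6, r within 0 was 0.12 for *HPGD*, 0.06 for *CPA3*, 0.53 for *RRAD* and 0.4 for *STRC*, so these values rest largely on that array, and it was 0.69 to 0.96 for *PGB*, *SLC18A2* and *ZNF324*. Within 6 months r lay between 0.69 and 0.94 without dog 3.

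The 4 arrays with the highest *MMP9* were also the highest for *CPA3* and *HPGD*. *CPA3* had a log2 ratio of 5.95 in dog 6 at 0 and of 5.81, 3.82 and 3.06 in dogs 3, 6 and 7 at 6 months, against -0.57 to 0.79 in ctrl. *HPGD* had 4.57, 5.7, 2.17 and 2.93 on those arrays. *CPA3* was well above background on 8, 6 and 7 arrays, while *HPGD* was so on 6, 3 and 3 and *PGB* on 6, 0 and 1, so the ratios of some of these genes were read near background. The share of probes well above background on the 4 arrays was 63.2%, 61.6%, 58.1% and 57.1%, and they came from 3 slides. In limma, *CPA3* differed by 1.06 ± 0.85 in 0 vs. ctrl and 1.92 ± 0.85 in 6 months vs. ctrl (adjusted p = 0.687 and 0.681). Its first difference was 0.25 without dog 6 at 0 and its second 1.29 without dog 3 at 6 months. None of the 7 genes was called in any comparison (smallest unadjusted p = 0.0336).

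Among the other member probes over the 22 arrays, r with *MMP9* probe 1 was 0.48 for *MMP2* probe 1, -0.01 for *MMP8*, -0.11 for *TIMP1* and 0.22 for *TIMP2*. Within the groups, *MMP9* and *TIMP1* gave r = 0.24 in ctrl, 0.27 at 0 and -0.49 at 6 months (exact permutation p = 0.592, 0.531 and 0.259, or 0.638, 0.587 and 0.34 adjusted over the 42 relations). Spearman's rho was -0.12, 0.21 and -0.57 (exact permutation p = 0.793, 0.662 and 0.2), and r without the 2 farthest arrays was -0.59, -0.12 and -0.64.

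Further genes of the pathway came from lists of other MMPs, other inhibitors, other ADAM and ADAMTS proteinases, and activators and partners. Of 62 listed genes 50 had a probe, and 66 of their 72 probes were tested. None was called in the 3 comparisons. At an unadjusted p under 0.05 there were 10.6% of these probes in 0 vs. ctrl (2 higher, 5 lower), 12.1% in 6 months vs. ctrl (6 higher, 2 lower) and 6.06% in 0 vs. 6 months (2 higher, 2 lower), against 11.7%, 7.2% and 5.96% of all probes. The 12 genes of activators and partners include those for plasminogen, its activators, the neutrophil elastase and lipocalin 2, which binds MMP9. Over 20 probes their median difference was 0.31 in 0 vs. ctrl and 0.5 in 6 months vs. ctrl, against -0.017 and -0.04 for all probes. At an unadjusted p under 0.05 in these comparisons, 0 and 2 of the 20 probes stood higher, against 3.81% and 4.09% of all probes. None stood lower, against 7.93% and 3.11% of all probes. The 13 probes of other MMPs had medians of -0.04 and 0.01 in these comparisons, and *MMP13* was never well above background.

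The probes with the smallest p in each direction were those of *ADAMTS14*, *ADAM23* and *ADAM9*. *ADAMTS14*, a proteinase that trims procollagen, was higher by 0.89 ± 0.3 in 0 vs. ctrl (adjusted p = 0.218) and by 1.1 ± 0.3 in 6 months vs. ctrl (adjusted p = 0.602). Its ratios ran from -0.4 to 0.33 in ctrl and from 0.44 to 1.95 at 6 months without overlap, as for 0.11% of all tested probes in this comparison, with Cy5 well above background on 8, 4 and 6 arrays of ctrl, 0 and 6 months. *ADAM23*, a family member without proteinase activity, was lower by 0.84 on the log2 scale in 0 vs. ctrl (-0.84 ± 0.3, adjusted p = 0.241), but was well above background on 1 of 7 arrays at 0. *ADAM9*, a membrane-bound proteinase measured well above background on all arrays, ran from -0.28 to 0.13 in ctrl, from -0.74 to 0.39 at 0 and from -1.11 to -0.25 at 6 months. Its difference was -0.5 ± 0.18 in 6 months vs. ctrl (adjusted p = 0.68) and 0.44 ± 0.19 in 0 vs. 6 months (adjusted p = 0.736).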

How the data were processed

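The authors extracted each array with the Feature Extraction software (version 10.7.3.1 per the labels, 10.10.1.1 per the file headers), which subtracted background, applied Lowess normalization and wrote, per the file headers, the log10 ratio of Cy5 to Cy3 of each spot. Processed, mean and background intensities of both channels are deposited beside it, as is a series matrix of log10 ratios, whose columns equal the scanner files for the cAD patients and differ for ctrl. The methods name peripheral blood nuclear cells and the labels whole blood. The log10 ratios were converted to log2, 208 outlier-flagged spots were left out, and spots of one probe were averaged (43603 probes). A probe was tested when Cy5 was well above background on at least 7 of 22 arrays. The 3 groups were compared in a single limma fit (limma 3.58.1, R 4.3.3, and the data.table package, version 1.17.8) with no block, as in the methods, and Benjamini-Hochberg adjustment over 38286 probes. The fits were tested on simulated data. Exact 2-sided permutation tests, sign-flip tests over dogs and correlations used scipy 1.17.1 and numpy 2.4.6, and figures matplotlib 3.10.9. The number of arrays limits the precision.

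The members and gene lists were chosen with earlier results of these data known. All member probes are named, the brightest per gene by mean Cy5 being its reference probe. From the wider lists the probe with the smallest p in each direction and comparison is named, and for likeness the 8 genes with the highest r, of which 1 is not reported here. Alternatives were normexp with loess, the ratio of processed signals, the series matrix, Cy5 alone with quantile normalization, no filter or a strict filter (19946 probes), slide as a random block, the one-way test of the methods followed by Tukey's, dog as a block, dogs 1 to 3 alone, and leaving out each array. Added after seeing the data were the slide as a fixed block, scan day as a random block, leaving out arrays for *TIMP1* and for the likeness to *MMP9*, and the correlations between *MMP9*, *MMP8*, *TIMP1* and *TIMP2*. The same dog number at 0 and 6 months marks the same dog, per the labels. Deviations from the group means correlated between the 2 arrays of a dog by -0.036 to 0.555, highest with its own array in 4 of 7 dogs. Dogs 3, 5 and 6 correlated higher with an array of another dog, at 0.207, 0.473 and 0.325, than with their own, at 0.165, 0.334 and -0.036. Arrays of one group correlated by at most 0.664, so none was counted as a duplicate.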

Additional observations from a re-analysis of the deposited data

Results flagged for a closer look

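Single arrays that stood apart from the rest of their group, by the gap to the nearest array relative to the range of the group (Dixon's criterion), were found in 5 of 69 groups of values checked, where chance alone gives about 1 in 20 groups. For *MMP9* probe 3, dog 6 at 0 had a log2 ratio of 5.83, with the next array at 2.03. *MMP9* minus *TIMP1* was 4.6 in the same dog at 0, with the next at 1.89. For *MMP2* probe 1, control dog 5 had 1.09, with the next at 0.14, and without it the difference in 0 vs. ctrl was 0.46 and that in 6 months vs. ctrl 0.48. For *TIMP1* probe 1, control dog 1 had -0.68, with the next at 0.06, and without it the difference in 0 vs. ctrl was -0.75. For *TIMP1* probe 1 at 6 months, dog 5 had 0.64, with the next at -0.1.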

How the results depend on the processing

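Across all probes, the 16 calls of 0 vs. ctrl (11 higher, 5 lower) became 0 with normexp and loess, 0 with the strict filter, 0 with slide as a random block, 0 with scan day as a random block, 0 with the methods' one-way test (2469 by Tukey's test before adjustment), 9 in the series matrix (4 higher, 5 lower) and 8093 with the Cy5 channel alone (2769 higher, 5324 lower), and 0 to 440 without single arrays, with 440 without dog 1 and 135 without dog 2 at 0. In 6 months vs. ctrl, 0 calls became 5947 with the Cy5 channel alone and 0 to 2 without single arrays. In 0 vs. 6 months, 0 calls became 1 with no filter and 0 to 103 without single arrays, with 103 without dog 1 at 0 and 94 without dog 3 at 6 months. Among the member probes each alternative could test, 0 were called in the 3 comparisons except with the Cy5 channel alone, with 1 in 0 vs. ctrl (*ADAM10*) and 2 in 6 months vs. ctrl (*MMP2* probe 1 and *MMP9* probe 4, at 1.59). With the dog as a replicate block, 0 probes were called in 0 vs. 6 months (2511 at an unadjusted p under 0.05), *MMP9* probe 1 stayed at -0.87 (adjusted p = 0.813), and no other call changed.

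Reference probes changed sign as follows under the alternatives, and the cause was not tested. In 0 vs. ctrl, *MMP9* gave -0.04 without dog 6, *MMP8* 0.04, *MMP14* -0.72 and *TIMP3* 0.26 with the Cy5 channel alone, *TIMP3* 0 with normexp and 0 with scan day as a block, and *MMP14* -0.04 with scan day as a block. In 6 months vs. ctrl, normexp gave *MMP2* -0.03, *TIMP3* -0.08 and *ADAM10* -0.02, the series matrix gave *MMP14* 0.14, the Cy5 channel alone gave *TIMP2* 0.1, and *ADAM10* was -0.01 with slide and -0.03 with scan day as a random block. In 0 vs. 6 months, normexp gave *MMP2* 0.05 and *TIMP3* 0.08, scan day as a block gave *MMP14* -0.01, dogs 1 to 3 alone gave *TIMP1* 0.12 and *TIMP3* 0.16, and slide as a fixed block gave *MMP14* -0.4, *TIMP1* 0.01 and *TIMP3* 0.2. Without single arrays, sign changes reached 0.11 for *MMP8*, -0.14 for *MMP14* and 0.05 for *TIMP3* in 0 vs. ctrl, 0.17 for *MMP14*, 0.01 for *TIMP2*, -0.16 for *TIMP3* and -0.12 for *ADAM10* in 6 months vs. ctrl, and 0.07 for *MMP2*, -0.12 for *MMP14*, 0.07 for *TIMP3* and -0.16 for *ADAM10* in 0 vs. 6 months. Without single arrays, *MMP9* probe 1 ranged from -0.04 to 0.8 in 0 vs. ctrl, 0.9 to 1.66 in 6 months vs. ctrl and -1.39 to -0.42 in 0 vs. 6 months. Under the strict filter 9 of the 19 member probes were tested, which left out *MMP2*, *MMP14*, *ADAM10* and the dim probes of *MMP9* and *TIMP3*, and the balance with *MMP25* was not run.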

Other observations

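A further probe, described in the files as *ADAM10* but carrying a transcript ID as its gene name, lay outside the rule. It was well above background on all 22 arrays, with mean log2 ratios of 0.07 ± 0.4 (SD, n = 8) in ctrl, -0.01 ± 0.36 (n = 7) at 0 and 0.12 ± 0.33 (n = 7) at 6 months, and it differed by -0.08 in 0 vs. ctrl and 0.06 in 6 months vs. ctrl, and by -0.13 between 0 and 6 months (adjusted p = 0.915, 0.964 and 0.935, limma).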
